A study of Homo sapiens with 15 samples.

Results

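The human mitochondrial ribosome is built from proteins that are encoded in the nucleus, and the genes of these proteins carry MRPL symbols for the large subunit and MRPS symbols for the small subunit. The members described here were the protein-coding genes whose symbol consists of MRPL or MRPS, a number and at most 1 further letter. The rule used names alone and no measured value. It found 78 genes among the 60649 in the deposited table, of which 49 carried a large-subunit and 29 a small-subunit symbol. The libraries held poly(A) mRNA of K562 cells, an established line of human chronic myeloid leukemia that carries BCR-ABL. Cells of this single line were left untreated or were given martinostat, an inhibitor of histone deacetylases (HDACs), at 0.15, 0.25, 0.5 or 1 µM for 24 h. Each of the 5 groups held 3 independent biological replicates, and the labels name no vehicle for the untreated cells.

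Mitochondrial ribosomes, or mitoribosomes, sit in the mitochondrial matrix and translate the few mRNAs made from mitochondrial DNA. All of these mRNAs encode core subunits of the respiratory chain and of ATP synthase. The small subunit binds the mRNA and decodes it, and the large subunit joins amino acids and holds the exit tunnel near the inner membrane. Many mitoribosomal proteins have bacterial homologues, whereas others were added only in mitochondria. The study sequenced mRNA to learn which genes respond to martinostat in leukemia cells, so the question here is how the genes of this particle responded as a set and which ones departed from it.

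Library totals lay between 23755510 and 32805574 counts. Replicate 3 at 0.25 µM and replicate 3 at 0.5 µM stood apart from the other libraries of their groups, with members a median of 0.18 and 0.35 below their group mean on the log2 scale. Replicate 2 at 1 µM lay a median of 0.15 above its group mean. In most libraries, these 3 among them, the deviation of a member moved with the GC content of its transcript. Pearson's r across 77 genes ran over the 15 libraries from -0.73, in replicate 3 at 0.25 µM, to 0.75, in replicate 1 at the same dose. These genes share the library and are not independent replicates. The 9 erythroid and K562 markers checked were all detected in every group, and their summed level was 2635 to 2861 CPM, or counts per 1000000 of the scaled library, in untreated libraries and 768 to 924 CPM at 1 µM. The 10 markers of T cells, B cells, monocytes, epithelium and fibroblasts summed to 153 to 166 CPM in untreated libraries and 326 to 514 CPM at 1 µM, and MS4A1, a defining B-cell marker, had 0 counts in untreated libraries. MS4A1 also had 0 counts at 0.15 and 0.25 µM, but not at 0.5 and 1 µM. The higher sum came from COL1A1, a collagen gene of fibroblasts, with means of 4.37 and 398 CPM. The other 9 of these markers summed to 148 to 162 CPM in untreated libraries and 33.9 to 40.9 CPM at 1 µM, and the epithelial marker EPCAM among them had means of 141 and 20.5 CPM. The sum hides opposite changes. Of the 10 markers, 9 passed the filter on low counts. At 1 µM the edgeR test used below called 5 of these higher and 3 lower, beside 38.8% and 27.5% of all genes tested. The part of these shifts in the results was not tested. In bulk RNA, fewer cells of a kind and less of an mRNA per cell cannot be told apart.

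Of the 78 members, 77 passed the filter on low counts. The exception was MRPL53, a large-subunit protein gene of which 99.4% of the exon bases lie under exons of other genes. It had 1 count in all 15 libraries together, in a 0.25 µM library, so its level could not be read. Levels of the others per length were given as CPM per kilobase of the canonical transcript. In untreated cells the median over the 78 genes was 66.7 CPM per kb, with quartiles of 27.3 and 123.8. MRPL53 entered these values and the large-subunit median below as 0. The median was 73.6 CPM per kb for large-subunit and 54.7 CPM per kb for small-subunit symbols. MRPL37 stood first with 305.5 CPM per kb, followed by MRPL41 with 291 and MRPS15 with 258. MRPS34 had the second highest level of the small subunit, at 239 CPM per kb. Apart from MRPL53, the lowest levels were 3.35 for MRPL38 and 3.55 for MRPS24, of which 45.1% and 23.2% of the exon bases lie under other genes. Other members did not follow this order. MRPL42 had 7.29 CPM per kb with 1.7% of such bases, and MRPL12 had 73.5 CPM per kb with 69.5%.

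Most mitoribosomal protein mRNAs were lower at every dose, in both subunits. At 0.15 µM, 60 of the 77 tested members were called lower and 0 higher by edgeR's quasi-likelihood test with a Benjamini-Hochberg adjusted p below 0.05. The number higher at an unadjusted p below 0.05 was 0, DESeq2 called 0 higher, and limma on log2(FPKM + 1) called 2. Over all 23711 genes tested, 19.4% were called lower and 31.9% higher. The median log2 fold change was -0.79 for the members and 0.28 for all genes tested. At 0.25 µM, 71 members were lower and 0 higher (0 at an unadjusted p below 0.05, 0 by DESeq2 and 2 by limma), against 24.8% and 37.4% of all genes, and the members' median was -1.21. At 0.5 µM, 70 were lower and 1 higher, with 27.6% and 39.4% of all genes called and a median of -1.36. At 1 µM the counts were again 70 lower and 1 higher, beside 27.5% and 38.8% of all genes, and the median was -1.37. Without the 2 libraries that stood apart, 66, 70, 69 and 70 members were lower at the 4 doses. The 4 comparisons share the untreated libraries.

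**Figure D1:**
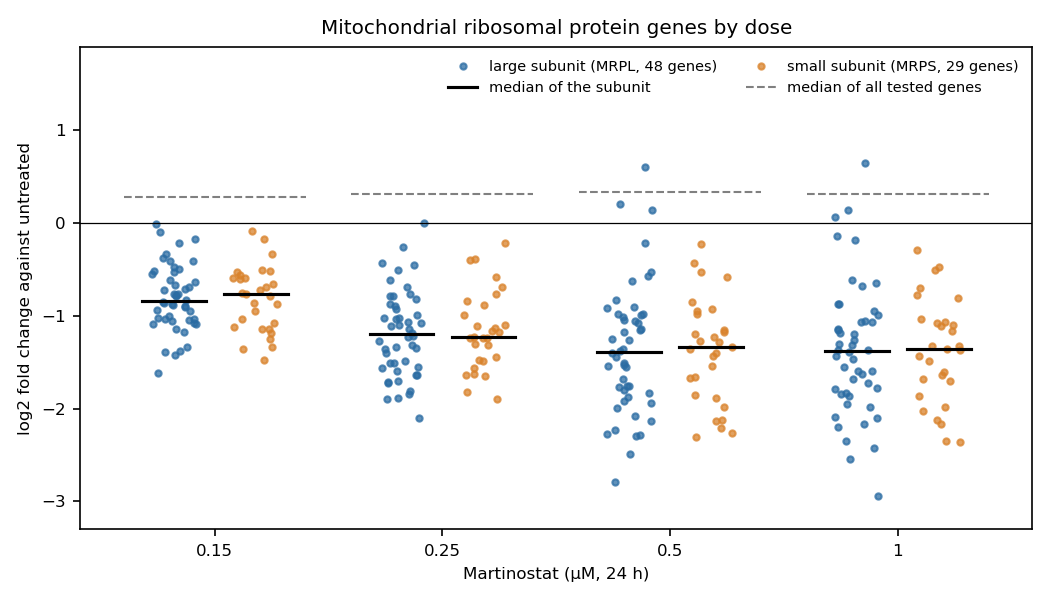
Log2 fold change against untreated cells (vertical axis) of 77 members at each martinostat dose (horizontal axis, µM), with 48 MRPL genes in blue and 29 MRPS genes in orange. Black lines are the subunit medians and dashed grey lines the median of all tested genes. The medians of the subunits are close at each dose and go from about -0.8 at 0.15 µM to about -1.4 at 1 µM.

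Members are mostly well expressed genes, and well expressed genes as a whole fell more often in these cells. Of 10128 genes whose mean reached 10 CPM, 40.2% were lower at 0.15 µM and 48.4% at 1 µM. Of the 71 members at that level, 56 were lower at 0.15 µM and 65 at 1 µM. The size of the change also differed, with a median log2 fold change at 1 µM of -1.37 for these 71 members and -0.39 for the 10128 genes. At 1 µM, 59 of the 77 members had a log2 fold change below -1, as did 4762 of the 23711 tested genes.

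How far the members appeared to fall depended on the scaling of the libraries. Scaling by library totals alone moved the median log2 fold change of all genes at 1 µM from 0.32 to 0.67 and that of the members from -1.37 to -1.02. Another scaling shifts all genes of a library alike, so the members' median lay 1.69 below that of all genes (log2) under both. At 0.15 µM the members' counts became 41 lower and 1 higher with library totals. Over all genes at 1 µM, calls split into 6514 lower and 9193 higher with the main scaling and into 4777 lower and 10808 higher with library totals. At 0.15 µM the split went from 4591 lower and 7557 higher to 2118 lower and 9582 higher.

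The medians of the large and the small subunit lay close together. At 0.15 µM, 36 of 48 large-subunit and 24 of 29 small-subunit genes were lower, with median log2 fold changes of -0.84 and -0.76. At 1 µM, 42 of 48 and 28 of 29 were lower, with medians of -1.38 and -1.36. The ranges between the quartiles were also alike, at -1.84 to -1.04 for the large and -1.71 to -1.07 for the small subunit. No test was made between the lists.

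Symbols do not always give the place of a protein. MRPS30 and MRPS18A lie in the large subunit in structures of the human particle, and MRPS36 is now known as a subunit of the 2-oxoglutarate dehydrogenase complex. With members sorted by structure, 44 of 50 large-subunit and 25 of 26 small-subunit genes were lower at 1 µM, with medians of -1.38 and -1.36. Sorted by ancestry, 44 of 46 genes with a bacterial homologue and 25 of 30 found only in mitochondria were lower, with medians of -1.57 and -1.31. Of the 6 members not called at 1 µM, 5 were among the latter 30.

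Summed over the members, untreated libraries held 8378, 8595 and 8259 CPM. The sums were 4763, 4495 and 5070 CPM at 0.15 µM, and 3291, 3924 and 3200 CPM at 1 µM. The groups did not overlap, and the mean at 1 µM was 41.3% of that in untreated cells. As a share of the raw library totals, the members took 6730 ± 233 CPM without treatment and 3545 ± 391 at 1 µM (SD, n = 3), which was 52.7% of the untreated mean.

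The sum of large-subunit over small-subunit mRNA, a ratio within each library, was 1.64 ± 0.01 in untreated cells, 1.59 ± 0.08 at 0.15 µM, 1.93 ± 0.15 at 0.5 µM and 1.93 ± 0.08 at 1 µM (SD, n = 3). Every library at 0.5 and 1 µM lay above every untreated one. The large-subunit genes MRPL10, MRPL40 and MRPL41, chosen after their values were seen, made up 8.94% of the large-subunit sum in untreated cells and 24.3% at 1 µM. Without them the ratio was 1.49 ± 0.02 in untreated cells, and with martinostat it was 1.38 ± 0.06 and 1.39 ± 0.05 at the 2 lower doses and 1.45 ± 0.07 and 1.46 ± 0.05 at the 2 higher ones (SD, n = 3). Every library at 0.15 and 0.25 µM then lay below the untreated ones, and those at 0.5 and 1 µM overlapped with them.

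**Figure D2:**
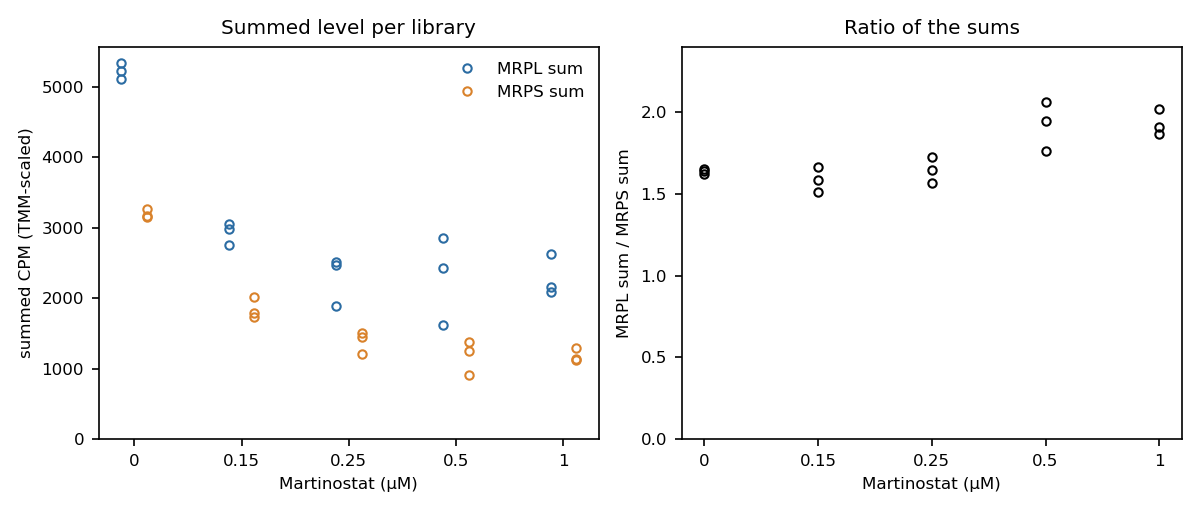
Left, summed level of MRPL genes (blue) and MRPS genes (orange) in each library, in TMM-scaled CPM, by martinostat dose in µM; right, the ratio of the sums. Each circle is 1 library. Both sums drop by 0.15 µM, and the ratio is above every untreated library at 0.5 and 1 µM.

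NRF1, GABPA and YY1 are DNA-binding factors known to act on nuclear genes for mitochondrial proteins, and promoters of the members were searched for short words that resemble their sites. RefSeq promoters (GRCh38.p14, 250 bases before to 50 bases after the start) were matched for 69 of the 78 members, and none for MRPL2, MRPL10, MRPL13, MRPL15, MRPL21, MRPL23, MRPL35, MRPS28 and MRPS36. The word CCGGAAG, an ETS-type site as bound by GABPA, stood on either strand in 29 of the 69 promoters (42%) and in 14.2% of 15842 promoters of protein-coding genes. ATGGCGG, a core bound by YY1, stood in 24 (34.8%) against 7.63% of all. TGCGCA, part of an NRF1 site, stood in 14 (20.3%) against 10.8%. The E-box CACGTG stood in 8.7% against 8.88%, CCAAT in 29% against 36.4%, and TATAAA in 2.9% against 9.63%. None of these words contains another. A match is a string of letters and says nothing of binding in these cells.

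The words stood both in members called lower at 1 µM and in members not called lower at that dose. At 1 µM, 23 of 28 tested members with CCGGAAG and 39 of 40 without it were lower, with medians of -1.19 and -1.60. With ATGGCGG, 22 of 24 were lower (median -1.62), and without it 40 of 44 (median -1.26). With TGCGCA, 13 of 14 were lower (median -1.46), and without it 49 of 54 (median -1.37). The 250 bases before the start are shown for the most reduced member of each subunit, MRPL3 (chr3:131502972-131503221, minus strand) and MRPS35 (chr12:27710582-27710831, plus strand), and for 3 members not called at 1 µM, MRPL40 (chr22:19432295-19432544, plus strand), MRPL41 (chr9:137551629-137551878, plus strand) and MRPS10 (chr6:42217862-42218111, minus strand). They read 5′ to 3′ toward the start, and capitals mark any of the 6 words on either strand.
MRPL3: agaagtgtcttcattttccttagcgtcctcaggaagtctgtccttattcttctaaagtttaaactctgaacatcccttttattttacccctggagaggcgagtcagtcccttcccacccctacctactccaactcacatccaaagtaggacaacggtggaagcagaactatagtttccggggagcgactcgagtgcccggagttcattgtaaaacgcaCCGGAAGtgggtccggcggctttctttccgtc
MRPS35: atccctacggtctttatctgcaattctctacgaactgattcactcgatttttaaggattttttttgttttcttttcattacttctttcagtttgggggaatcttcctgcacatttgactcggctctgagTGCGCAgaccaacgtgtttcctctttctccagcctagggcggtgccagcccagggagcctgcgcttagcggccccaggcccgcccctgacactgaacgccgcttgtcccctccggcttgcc
MRPL40: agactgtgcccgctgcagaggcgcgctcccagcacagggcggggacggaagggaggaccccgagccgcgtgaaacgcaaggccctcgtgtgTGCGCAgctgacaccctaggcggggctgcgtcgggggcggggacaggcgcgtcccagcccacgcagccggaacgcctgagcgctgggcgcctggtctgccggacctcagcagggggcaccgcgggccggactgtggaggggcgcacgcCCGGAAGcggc
MRPL41: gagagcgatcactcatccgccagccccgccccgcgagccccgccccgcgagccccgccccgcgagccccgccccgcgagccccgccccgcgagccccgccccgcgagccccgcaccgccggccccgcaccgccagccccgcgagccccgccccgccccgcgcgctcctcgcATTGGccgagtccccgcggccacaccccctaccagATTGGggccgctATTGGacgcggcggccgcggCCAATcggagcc
MRPS10: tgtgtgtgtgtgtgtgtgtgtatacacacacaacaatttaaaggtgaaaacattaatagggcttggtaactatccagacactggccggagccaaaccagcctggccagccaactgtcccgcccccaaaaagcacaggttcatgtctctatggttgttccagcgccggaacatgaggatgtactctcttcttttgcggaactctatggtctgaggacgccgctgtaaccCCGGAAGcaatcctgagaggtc

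CCGGAAG thus occurs in MRPL3, which fell most, and equally in MRPL40 and MRPS10, which were not called. The printed bases of MRPL41 hold CCAAT or its complement ATTGG at 4 places and repeated GC-rich runs, and those of MRPS35 hold TGCGCA once. The promoters were searched past the start, and so beyond the printed bases. In that longer stretch MRPS35 and MRPS10 also hold ATGGCGG, and both are counted among the members with this word.

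At 1 µM the 4 most reduced large-subunit genes were MRPL3, MRPL15, MRPL39 and MRPL19. MRPL3 belongs to the bacterial core of the subunit near the site where peptide bonds form. Its level was 208, 237.5 and 216 CPM in untreated cells, 89.7, 76.5 and 50.5 at 0.15 µM, 43.5, 58.2 and 52.7 at 0.25 µM, 35.2, 38.2 and 22.1 at 0.5 µM. The libraries at 1 µM held 29.2, 29.9 and 27.2 CPM. All treated libraries lay below all untreated ones, and the log2 fold change went from -1.61 ± 0.21 at 0.15 µM to -2.94 ± 0.22 at 1 µM (SE, edgeR adjusted p = 2.98e-06 and 7.75e-10).

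MRPL15, another homologue of a bacterial protein, stood at 151, 157 and 153 CPM without treatment and 23.6, 30.5 and 25.3 CPM at 1 µM. The log2 fold change went from -0.89 ± 0.18 at 0.15 µM to -2.54 ± 0.18 at 1 µM (SE, edgeR adjusted p = 0.000308 and 6.52e-10). MRPL39, which is found only in mitochondria, went from 50.3, 54.8 and 47.0 CPM to 10.2, 9.26 and 8.82 CPM. MRPL19 was at 131, 158 and 149 CPM in untreated libraries and 29.6, 26.4 and 30.0 CPM at 1 µM. In none of the 3 did a library at 1 µM reach an untreated one. The log2 fold changes of MRPL39 and MRPL19 at 1 µM were -2.43 and -2.35, and 19.5% of the exon bases of MRPL19 lie under another gene on its own strand.

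In the small subunit the lowest were MRPS35, MRPS15, MRPS30 and MRPS5. MRPS35, a protein without a bacterial counterpart, was at 160.6, 175 and 164.5 CPM in untreated cells, 74.5, 74.5 and 81.0 at 0.15 µM, 51.8, 51.4 and 59.2 at 0.25 µM, 37.1, 35.9 and 28.0 at 0.5 µM. It was at 29.1, 33.1 and 35.4 CPM in cells given 1 µM. Replicates lay close together at each dose and no treated library came near the untreated range. Its log2 fold change was -1.12 ± 0.13 at 0.15 µM and -2.36 ± 0.14 at 1 µM (SE, edgeR adjusted p = 1.51e-06 and 4.45e-11), and from 0.15 to 1 µM it fell by a further 1.24 on the log2 scale.

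MRPS15, whose bacterial homologue binds the central domain of the small-subunit rRNA, stood at 243, 247 and 248 CPM without treatment and 42.2, 59.2 and 43.8 CPM at 1 µM. At 1 µM its change on the log2 scale was -2.35 ± 0.23 (SE). MRPS5, also of bacterial ancestry, was at 131, 134 and 131 CPM and then at 27.1, 35.4 and 27.9 CPM, a change of -2.13 ± 0.13 (SE). MRPS30 went from 223, 215 and 213 CPM to 51.2, 45.1 and 48.9 CPM, a change of -2.16 ± 0.17 (SE). The edgeR adjusted p of these 3 genes lay between 8.58e-11 and 3.68e-08, and their untreated and 1 µM libraries were far apart.

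Among members with a high level per length, MRPL37 and MRPS34 fell as well, whereas MRPL41 and MRPL40 were not called at 1 µM. MRPL37 is a paralogue of MRPS30. It was at 426, 463 and 470.2 CPM without treatment and 165, 165 and 162 CPM at 1 µM. MRPS34 was at 259.7, 228 and 227 CPM and then at 65.9, 100.5 and 63.7 CPM, with replicate 2 the highest. The log2 fold changes at 1 µM were -1.46 ± 0.22 for MRPL37 and -1.64 ± 0.37 for MRPS34 (SE, edgeR adjusted p = 8.2e-06 and 0.00128). At 0.15 µM MRPS34 was at -0.72 ± 0.36 and missed the threshold (edgeR adjusted p = 0.111). In MRPS34, 31.2% of the exon bases lie opposite another gene, and whether reads were counted by strand is not given in the sources used here.

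**Figure D3:**
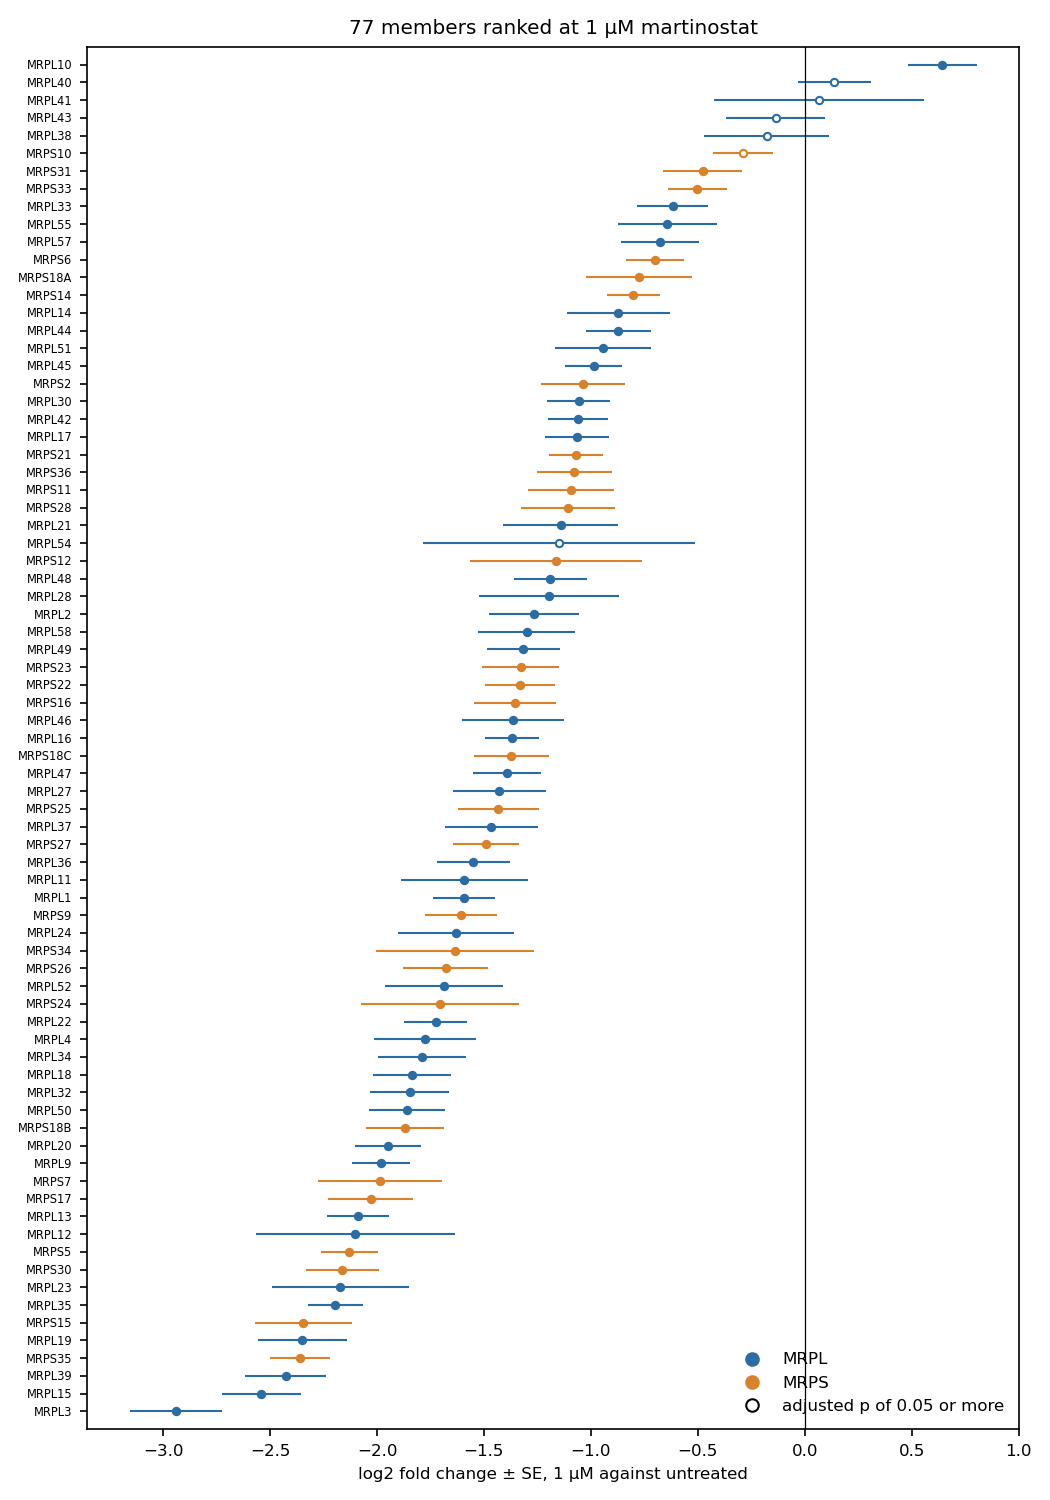
Log2 fold change with its standard error at 1 µM martinostat against untreated cells (horizontal axis) for the 77 tested members, ranked (vertical axis), with MRPL genes in blue and MRPS genes in orange. Filled circles had an adjusted p below 0.05. MRPL10 alone is called higher, 6 open circles were not called, and the order runs down to MRPL3 at -2.94.

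MRPL10 was the only member called higher at 1 µM. Its protein forms the base of the stalk that recruits translation factors. The level was 108, 118 and 112 CPM in untreated cells, 82.4, 90.8 and 81.0 at 0.15 µM, 80.3, 98.8 and 67.5 at 0.25 µM, 181, 199.8 and 133 at 0.5 µM. The libraries at 1 µM held 190.4, 171 and 167 CPM. The 2 lower doses thus lay below, and the 2 higher doses above, all untreated libraries. From the lowest to the highest dose, the log2 fold changes were -0.41, -0.45, 0.60 and 0.64, each with an SE of 0.16 (edgeR adjusted p = 0.0395, 0.0194, 0.00275 and 0.00167). The direct comparison of 1 with 0.15 µM gave 1.05 ± 0.16 (SE, edgeR adjusted p = 3.08e-05). The increase at 0.5 and 1 µM was found under every scaling tried. The decrease at 0.15 µM was lost when any 1 of the 6 libraries of that comparison was left out, with values from -0.46 to -0.38. It was also lost with library totals alone, at -0.05, and with TMM factors of genes above 10 CPM, at -0.15, and at 0.25 µM the sign turned with library totals alone (log2 fold change 0.06).

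MRPL12 forms the mobile part of the same stalk, and it is named here after its values were seen. It was at 82.6, 68.2 and 71.8 CPM without treatment and 13.6, 26.2 and 12.0 CPM at 1 µM. MRPL12 thus changed by -2.10 ± 0.47 on the log2 scale (SE, edgeR adjusted p = 0.00139), opposite to that of MRPL10. Of its exon bases, 69.5% lie under another gene on the same strand.

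MRPL40 and MRPL41 belong to the proteins found only in mitochondria, and neither was called at any dose with the main scaling. MRPL40 was at 160.0, 198 and 196 CPM in untreated cells, 198, 182 and 171 at 0.15 µM, 180.3, 217.5 and 156 at 0.25 µM, 249, 236 and 155 at 0.5 µM. It was at 207, 205 and 197 CPM in cells given 1 µM. The groups overlapped throughout, and the log2 fold change at 1 µM was 0.14 ± 0.17 (SE, edgeR adjusted p = 0.493). With library totals alone it was 0.49 at 1 µM and called higher, and at 0.15 µM the value turned from -0.01 to 0.36. With TMM factors of genes above 10 CPM it was called higher at 0.25, 0.5 and 1 µM, at 0.41, 0.61 and 0.52. Relative to the median of all genes, 0.32 with the main scaling, MRPL40 lay slightly below at 1 µM with that scaling and with library totals. It lay above the median of genes whose mean reached 10 CPM, which was -0.39 with the main scaling.

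MRPL41 had 193, 159 and 156.5 CPM without treatment and 139, 267.5 and 126 CPM at 1 µM. At 0.5 µM its libraries spread from 67.5 to 319 CPM. At 1 µM its log2 fold change of 0.07 carried a standard error of 0.49 (edgeR adjusted p = 0.914). MRPL54, named after its values were seen, showed the same spread, with 99.0, 67.8 and 65.7 CPM without treatment and 21.1, 62.7 and 21.1 CPM at 1 µM. Its value of -1.15 ± 0.64 (SE) did not pass the test (edgeR adjusted p = 0.131), and the high library was again replicate 2.

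MRPL43 had 36.3, 37.97 and 35.8 CPM without treatment and 32.2, 40.1 and 27.9 CPM at 1 µM, and these groups overlapped. MRPL38, named after its values were seen, stayed at 5.46 CPM or below in every library. Their log2 fold changes at 1 µM were -0.14 ± 0.23 and -0.18 ± 0.29 (SE), neither of which passed the test. Both genes share sequence with neighbours, with 38.1% of the exon bases of MRPL43 on the opposite strand and 41.1% of those of MRPL38 on the same strand.

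The small subunit had 1 gene that was not called at 1 µM, MRPS10, a homologue of a bacterial protein in the head of the subunit. It was at 108, 121 and 116 CPM in untreated cells, 71.9, 73.2 and 96.6 at 0.15 µM, 87.5, 79.7 and 95.7 at 0.25 µM, 95.4, 105.8 and 95.0 at 0.5 µM. It was at 99.5, 85.2 and 97.5 CPM in cells given 1 µM. All treated libraries lay below all untreated ones. The log2 fold change was -0.51 ± 0.14 at 0.15 µM (SE, edgeR adjusted p = 0.00465). At 0.25 and 0.5 µM it was -0.39 and -0.22, and at the highest dose it was -0.29 ± 0.14 (SE, edgeR adjusted p = 0.0736). With library totals alone the value at 0.15 µM was -0.16 and no longer called, and the sign turned at the 3 higher doses, to 0.07 at 1 µM. With TMM factors of genes above 10 CPM the value at 0.15 µM was -0.25 and not called.

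MRPS31 and MRPS36 were lowest at the lowest dose. MRPS31, found only in mitochondria, had 31.6, 44.8 and 35.7 CPM in untreated cells, 18.6, 21.7 and 12.9 at 0.15 µM and 28.2, 25.9 and 26.5 at 1 µM. The log2 fold change of MRPS31 was -1.08 ± 0.19 at 0.15 µM and -0.48 ± 0.18 at 1 µM (SE, edgeR adjusted p = 8.88e-05 and 0.0283), and between these doses it rose by 0.60 ± 0.18 (SE, edgeR adjusted p = 0.013). The call at 1 µM was lost without untreated replicate 2, at -0.33, without 1 µM replicate 2, at -0.45, and without 1 µM replicate 3, at -0.47. It was lost as well with DESeq2, at -0.42, with library totals alone, at -0.12, and with TMM factors of genes above 10 CPM, at -0.09. MRPS36 stood at 33.0, 41.6 and 35.1 CPM, then at 16.0, 12.4 and 11.1 CPM at 0.15 µM and 19.2, 16.9 and 16.0 CPM at 1 µM. Its fold changes were -1.48 ± 0.18 and -1.08 ± 0.18 (SE), and the difference between the doses, 0.40 ± 0.18 (SE), missed the threshold (edgeR adjusted p = 0.0757).

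MRPS33 and MRPS6 had the smallest called decreases of the small subunit next to MRPS31. MRPS33 was at 55.7, 64.1 and 59.0 CPM without treatment and 39.7, 41.8 and 44.6 CPM at 1 µM. MRPS6 was at 45.0, 50.2 and 57.7 CPM and then at 32.1, 31.5 and 30.5 CPM. The log2 fold changes were -0.50 ± 0.14 and -0.70 ± 0.13 (SE, edgeR adjusted p = 0.00339 and 0.00015). At 0.15 µM they were -0.08 and -0.17, neither passed the test, and the libraries overlapped with the untreated ones. With library totals alone the 0.15 µM values turned to 0.28 and 0.19, and the decrease of MRPS33 at 1 µM shrank to 0.15 and was no longer called.

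**Figure D4:**
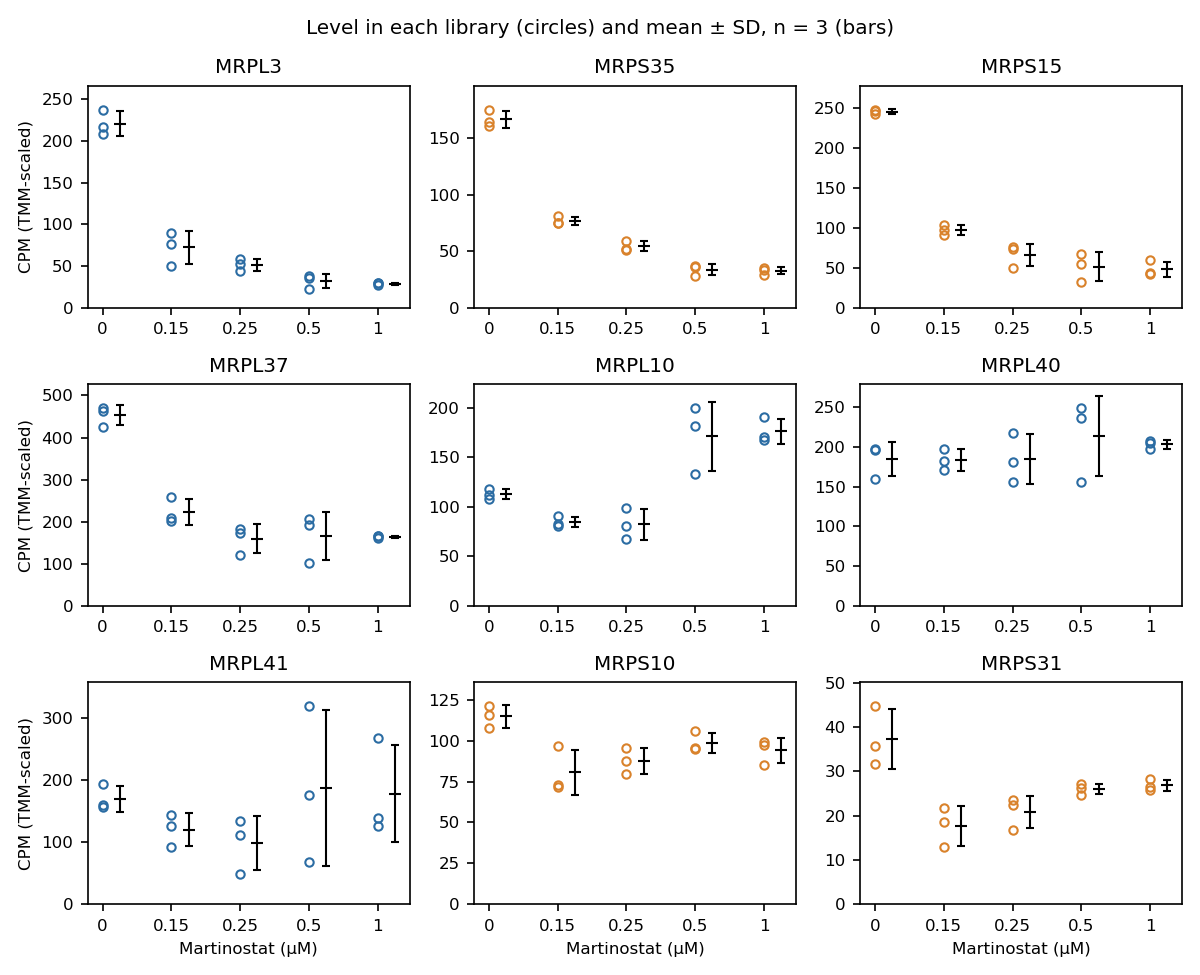
Level of 9 members in TMM-scaled CPM (vertical axes, from 0) by martinostat dose in µM, with large-subunit genes in blue and small-subunit genes in orange. Circles are libraries and bars the mean ± SD (n = 3). MRPL3, MRPS35 and MRPS15 step down from 0 to 0.15 µM and further. MRPL37 steps down to 0.15 µM, with no further decrease called from 0.15 to 1 µM. MRPL10 is above the untreated libraries at 0.5 and 1 µM, and MRPL41 is widely spread.

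The 3 paralogues of MRPS18 sit at different places in the particle, and at 1 µM all of them were called lower. MRPS18B and MRPS18C belong to the small subunit and MRPS18A to the large one. MRPS18B was at 188, 211 and 219 CPM without treatment and 53.9, 57.1 and 58.4 CPM at 1 µM. MRPS18C was at 27.8, 30.4 and 28.0 CPM and then at 11.0, 12.6 and 9.80 CPM, and MRPS18A at 63.1, 60.8 and 61.4 CPM and then at 28.8, 49.4 and 30.0 CPM. No library at 1 µM reached its untreated range. The log2 fold changes were -1.87 ± 0.18, -1.37 ± 0.17 and -0.77 ± 0.25 (SE, edgeR adjusted p = 3.58e-08, 1.18e-06 and 0.0114). Without replicate 1 or replicate 3 at 1 µM the call of MRPS18A was lost, at -0.64 and -0.66, and so it was with library totals alone, at -0.42, and with TMM factors of genes above 10 CPM, at -0.39. Of the exon bases of MRPS18A and MRPS18C, 50.9% and 40.2% lie opposite other genes.

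Between neighbouring doses few members were called. From 0.15 to 0.25 µM, 9 members were lower and 0 higher (0 at an unadjusted p below 0.05, and 0 by DESeq2), against 7.32% and 4.96% of all genes. From 0.25 to 0.5 µM, 16 were lower and 1, MRPL10, higher, against 16% and 14.4%. Of the 10128 genes whose mean reached 10 CPM, 15.2% were lower at the first of these steps and 21.9% at the second, and of the 71 members at that level 11.3% and 21.1% were. The median log2 differences at the 2 steps were -0.14 and 0.03 for these genes and -0.36 and -0.21 for these members. With the replicate number as a block in a fit of the libraries at 0.25 and 0.5 µM alone, 29 members were lower and 5 higher at the second step, against 21.6% and 20.6% of all genes. Both steps depended on single libraries. The 9 became 25 without replicate 3 at 0.5 µM, 4 or 5 without replicate 1 or 3 at 0.15 µM, and 3 or 4 without replicate 2 or 3 at 0.25 µM. The 16 became 10 without replicate 2 at 0.25 µM, and the 1 higher became 8 without replicate 3 at 0.5 µM and 3 without replicate 1 at 0.25 µM. From 0.5 to 1 µM, edgeR called 0 members and 0% of all genes, DESeq2 called 0 members, and 0 members had an unadjusted p below 0.05. Across the whole range from 0.15 to 1 µM, 43 members were lower and 2, MRPL10 and MRPS31, higher, against 23.1% and 21.5% of all genes, and the median log2 difference was -0.57 for the members and 0.02 for all genes. Without 1 library, the count of 43 lay between 32 and 48.

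MRPL23 and MRPL35 illustrate different dose courses and are named after their values were seen. MRPL23 was at 12.3, 12.0 and 16.1 CPM in untreated cells, 18.1, 7.94 and 11.9 at 0.15 µM, and 4.24, 4.08 and 2.63 at 0.25 µM. MRPL35 was at 128, 134 and 120.3 CPM in untreated cells, 74.7, 80.1 and 82.4 at 0.25 µM, and 26.2, 24.6 and 27.4 at 0.5 µM. The 0.15 µM libraries of MRPL23 thus overlapped with the untreated ones and its 0.25 µM libraries did not, whereas MRPL35 kept an intermediate level up to 0.25 µM. Their log2 fold changes at 1 µM were -2.17 ± 0.32 and -2.20 ± 0.13 (SE, edgeR adjusted p = 8.04e-06 and 3.92e-11).

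A further 5 mitoribosomal proteins are encoded by genes with other symbols. At 1 µM, 3 of these 5 were lower and 0 higher, with a median of -1.34. Of all genes tested, 27.5% were lower and 38.8% higher at that dose. Of those whose mean reached 10 CPM, 48.4% were lower. PTCD3, an RNA-binding protein of the small subunit, went from 158, 201 and 180.1 CPM to 74.7, 63.9 and 74.1 CPM. GADD45GIP1, a large-subunit protein, had the lowest log2 fold change of the list, -1.90 ± 0.43 (SE, edgeR adjusted p = 0.00165). DAP3, a GTP-binding protein of the small subunit, had the highest, with 270.2, 310.1 and 293 CPM in untreated cells, 172, 193 and 204 at 0.15 µM, and 256, 250.4 and 255 at 1 µM. Its log2 fold change was -0.62 ± 0.13 at 0.15 µM and -0.20 ± 0.13 at 1 µM (SE, edgeR adjusted p = 0.000496 and 0.177).

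Genes that assemble the mitoribosome or work with it were also mostly lower at 1 µM. Of 25 assembly factors, 19 (76%) were lower and 3 higher, with a median log2 fold change of -1.26. Over all genes tested the shares were 27.5% and 38.8%, and 48.4% of genes whose mean reached 10 CPM were lower. The lowest was MRM1, a methyltransferase of large-subunit rRNA, which went from 47.4, 45.5 and 43.4 CPM to 3.09, 2.45 and 2.93 CPM (-4.01 ± 0.20, SE, edgeR adjusted p = 4.17e-12). At 0.15 µM its change was -0.17 ± 0.17 (SE). The highest, MPV17L2, a membrane protein, was at 56.1, 46.6 and 48.5 CPM and then at 92.1, 136.8 and 81.7 CPM (1.04 ± 0.36, SE, edgeR adjusted p = 0.0187). This call was lost when untreated replicate 2, untreated replicate 3 or 1 µM replicate 2 was left out, with 0.99, 1.01 and 0.79. In each of these fits 1 assembly factor was called higher instead of 3.

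Of 15 factors for initiation, elongation, termination and rescue, 10 (66.7%) were lower and 2 higher, with a median of -0.70. Beside this and the next list, 27.5% of all genes were lower and 38.8% higher. Of those whose mean reached 10 CPM, 48.4% were lower. GUF1, an elongation factor, had -1.99 ± 0.15 (SE, edgeR adjusted p = 8.64e-10). MTRES1, a rescue factor, had 11.8, 11.7 and 10.0 CPM without treatment and 28.8, 31.9 and 25.1 CPM at 1 µM (1.36 ± 0.15, SE, edgeR adjusted p = 2.18e-07). Of 13 genes for mitochondrial transcription and RNA stability, 12 were lower and 0 higher, with a median of -1.76. TFB2M, which opens mitochondrial promoters, went from 113, 126 and 119 CPM to 9.41, 9.53 and 7.60 CPM (-3.75 ± 0.18, SE, edgeR adjusted p = 3.44e-12). TEFM, an elongation factor of mitochondrial RNA polymerase, had 0.16 ± 0.18 (SE) and was not called. With library totals alone and with TMM factors of genes above 10 CPM it was called higher, at 0.52 and 0.55. It was also called higher with at least 10 counts in every library and with limma, at 0.44 and 0.31.

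The 86 cytosolic ribosomal protein genes moved less. At 1 µM, 35 (40.7%) were lower and 2 higher, with a median of -0.42. Of all genes tested, 27.5% were lower and 38.8% higher. Among genes whose mean reached 10 CPM, 48.4% were lower and the median was -0.39. The count of 35 lay between 25 and 49 when 1 library was left out. The 2 higher genes were RPL3L and RPL10L, tissue-restricted paralogues with low levels in untreated cells. RPL3L had a mean of 0.37 CPM without treatment and 18.1 CPM at 1 µM, and RPL22L1, the lowest of the list, went from 26.4 to 4.76 CPM. Their summed level was 98629 to 100690 CPM without treatment and 74239 to 96550 CPM at 1 µM.

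**Figure D5:**
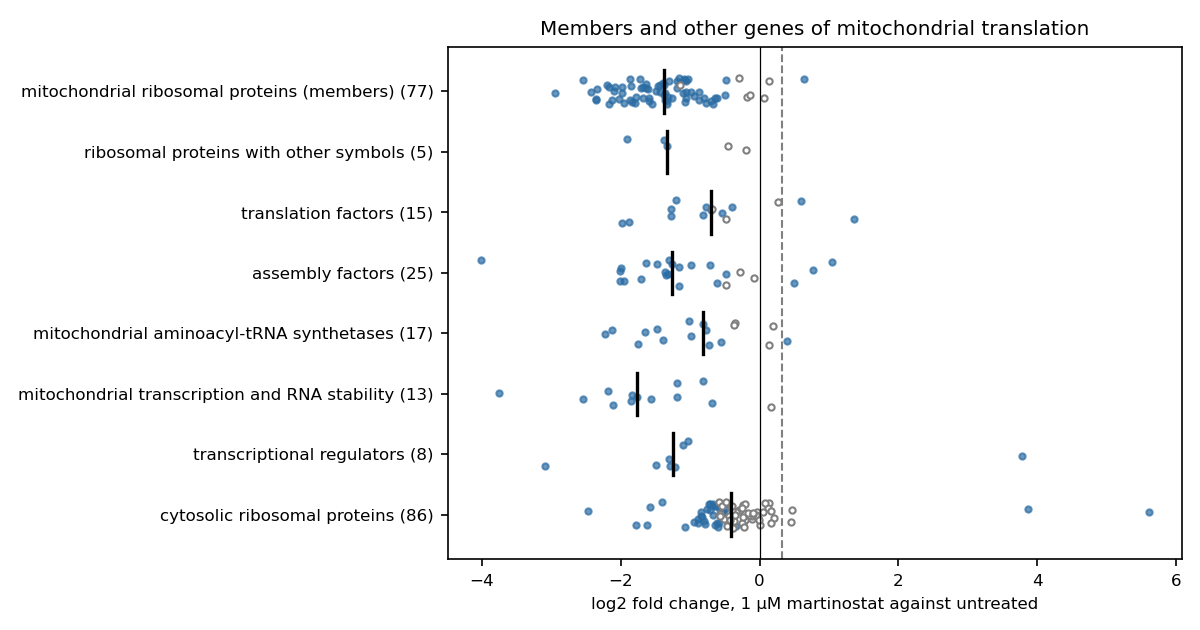
Log2 fold change at 1 µM martinostat against untreated cells (horizontal axis) for the members and 7 other gene lists (vertical axis, number of genes tested in brackets). Filled points had an adjusted p below 0.05, black bars are list medians and the dashed line is the median of all tested genes. The medians run from -1.76 for mitochondrial transcription and RNA stability to -0.42 for cytosolic ribosomal proteins, and the members lie at -1.37.

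Of 8 regulators known to act on nuclear genes for mitochondrial proteins, 7 were lower and 1 higher at 1 µM. Among all genes, 27.5% were lower and 38.8% higher, and 48.4% of those whose mean reached 10 CPM were lower. PPRC1, a coactivator, had the lowest value, with 177, 178 and 181 CPM without treatment and 21.7, 18.1 and 23.1 CPM at 1 µM (-3.09 ± 0.14, SE, edgeR adjusted p = 1.3e-12). NRF1, GABPA and YY1, DNA-binding factors, had log2 fold changes of -1.21, -1.10 and -1.29, all called. PPARGC1A, the only one called higher, had 2 counts in the 3 untreated libraries together and 36 in those at 1 µM, a level near the limit of detection.

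Of the 78 members, 18 (23.1%) start head to head with another protein-coding gene within 1000 bases, compared with 10.6% of 15640 tested protein-coding genes. Of the 17 neighbours tested, 10 were lower and 2 higher at 1 µM, with a median log2 fold change of -0.99, beside 27.5% and 38.8% of all genes tested and 48.4% lower among those whose mean reached 10 CPM. In MRPL46 and MRPS11, both genes of the pair are members, with starts 63 bases apart and changes of -1.36 and -1.09. Each is the neighbour of the other, so both are counted among the 17 neighbours, the 10 lower ones and their median. No count was made without this pair. MRPL36 lies beside NDUFS6, a complex I subunit, and they had -1.55 and -2.58. MRPL18 lies beside TCP1, a chaperonin subunit, with -1.84 and -1.71. LRRC46, whose start is 93 bases from that of MRPL10, was higher with 2.35, and HELQ, a helicase gene beside MRPS18C, was higher with 0.74 while MRPS18C had -1.37. FAU, a cytosolic ribosomal protein gene beside MRPL49, was at -0.55 and not called, and MRPL49 was at -1.32.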

How the data were processed

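The authors made poly(A)-selected, directional mRNA libraries from TRIzol RNA and sequenced them in pairs. Per the submitters' processing notes they used Trim Galore 0.6.10, HISAT2 2.2.1 on hg38, SAMtools 1.21 and featureCounts 1.5.3 with GENCODE 38. The strand setting of the counting is not given in the sources used here. They deposited raw read counts per gene for the 15 libraries and FPKM values per library; for 94.4% of genes with such values, the FPKM length equals the genomic span within 0.1%, so FPKM served only as an alternative.

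Counts were tested with edgeR 4.0.16 (R 4.3.3), quasi-likelihood with robust dispersion, TMM scaling and 1 fit over the 5 groups. Its expression filter kept 23711 of 60649 genes, p-values were adjusted over all of them (Benjamini-Hochberg), and the threshold was 0.05. Levels are TMM-scaled CPM. DESeq2 1.42.0 and limma 3.58.1 on log2(FPKM + 1) were alternatives. The main test was checked on simulated counts. Groups and doses came from the sample labels. Symbols and positions came from GENCODE 44 by identifier without version, which matched 99.8% of genes. Levels per kb use the canonical transcript.

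The members and gene lists were chosen with earlier results of these data known, and the synthetases and head-to-head neighbours after these values were seen. Named members are, per subunit, the 4 highest and 4 lowest log2 fold changes at 1 µM and the 2 highest levels per kb, plus those called against the majority or in opposite directions at different doses, the one that failed the filter, those misplaced by symbol with their paralogues, and in each other list the highest and lowest. Same-numbered libraries deviated together between 0.25 and 0.5 µM only (correlations of deviations across genes of 0.27, 0.27 and 0.58), so a replicate block was tried for that step. Deviations were taken from the mean of each group, so these values are not independent of each other. Replicate 2 at 0.25 µM and replicate 1 at 0.5 µM, which differ in number, reached 0.24. Differently numbered libraries of other groups reached up to 0.15. Of the other 27 same-numbered pairs, 0 exceeded 0.1, and the labels name no shared batch. Replicate libraries differed by more than sampling noise (chi-square per degree of freedom of at least 5.96). Library totals limit precision. An SD here is the spread between the replicates of a group. An SE comes from the fit over the 5 groups, with a dispersion shared among them, and not from the compared groups alone.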

Additional observations from a re-analysis of the deposited data

How the results depend on the processing

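Left-out libraries gave 51 to 66 lower members at 0.15 µM, 67 to 72 at 0.25 µM, 69 to 70 at 0.5 µM and 66 to 70 at 1 µM, with medians from -0.85 to -0.77, -1.27 to -1.12, -1.48 to -1.21 and -1.50 to -1.31. From 0.25 to 0.5 µM they gave 10 to 16 lower and 1 to 8 higher members, from 0.15 to 0.25 µM 3 to 25 lower, and 1 to 2 were higher at 0.5 µM. The medians at the 4 doses were -0.43, -0.69, -0.99 and -1.02 with library totals alone, -0.53, -0.79, -0.96 and -0.99 with TMM factors taken from genes above 10 CPM, -0.61, -0.93, -1.08 and -1.09 with at least 10 counts in every library, and -0.34, -0.52, -0.70 and -0.72 with limma on log2(FPKM + 1). Members called higher numbered 1, 2, 2 and 2 at the 4 doses with library totals alone, 2 at each dose with limma, 0, 1, 2 and 2 with such TMM factors, and 2 at 0.5 and 1 µM with at least 10 counts in every library. Of all genes, 40.4%, 49.3%, 46.8% and 45.6% were higher at the 4 doses with library totals alone. With such TMM factors the shares were 38.3%, 47.2%, 48.1% and 46.8%. With library totals alone 14 small-subunit genes were lower at 0.15 µM, against 8.93% of all genes. From 0.15 to 1 µM, 4 members were higher with DESeq2, with the stricter filter and with TMM factors of well expressed genes, and 1 with limma. From 0.15 to 0.25 µM, 4 were lower with RLE scaling, 4 with TMM factors from well expressed genes, 5 with library totals, 19 without a filter and 3 with only the compared groups. Of all genes, 5.01% were lower at this step with RLE scaling, 4.32% with such TMM factors and 4.16% with library totals. From 0.25 to 0.5 µM, 28, 27 and 6 were lower with library totals, limma and only the compared groups, and 2 were higher without a filter. With library totals 19.1% of all genes were lower at this step. Without both replicates 3 at 0.25 and 0.5 µM, an alternative chosen after seeing the data, 2 were higher at 0.5 µM and 2 from 0.25 to 0.5 µM. At 0.15 µM, MRPL40 turned to 0.36 with library totals and 0.35 with limma, and MRPS33 to 0.22 with limma. Apart from the scalings' own construction, the cause was not tested.

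With a replicate block over all groups, 61, 72, 71 and 70 members were lower at the 4 doses, and 16 lower and 1 higher from 0.25 to 0.5 µM. In a blocked fit of the libraries at 0.25 and 0.5 µM alone, chosen after seeing the data, 29 were lower and 5 higher. The decrease of the members at each dose kept its direction in all alternatives. Members with few counts or shared exons limit what depth can show.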

Other observations

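Mitochondrial aminoacyl-tRNA synthetases charge the tRNAs that the mitoribosome uses. The 17 genes whose symbol is a letter followed by ARS2 were taken as a complete set after the other results were seen. At 1 µM, 12 were lower and 1 higher by edgeR's quasi-likelihood test, with a median log2 fold change of -0.81. At 0.15 µM 11 were lower and 0 higher, with a median of -0.63. Among all genes, 27.5% were lower and 38.8% higher at 1 µM, and 19.4% and 31.9% at 0.15 µM. Of those whose mean reached 10 CPM, 48.4% were lower at 1 µM and 40.2% at 0.15 µM. MARS2, for methionine, was at 65.4, 84.4 and 62.0 CPM in untreated cells and 16.5, 12.1 and 16.7 CPM at 1 µM, a log2 fold change of -2.23 ± 0.23 (SE, edgeR adjusted p = 7.31e-08). PARS2, for proline, was at 27.8, 35.5 and 34.3 CPM and then at 45.8, 38.8 and 44.1 CPM, a log2 fold change of 0.40 ± 0.15 (SE, edgeR adjusted p = 0.0237), and this call was lost without untreated replicate 1, at 0.30, or without 1 µM replicate 1 or 3, at 0.35 and 0.38.

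The 13 protein-coding genes of mitochondrial DNA, whose mRNAs the mitoribosome translates, had 0 counts in all 15 libraries, so their levels were not analysed here.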
